A study of Mus musculus with 23 samples.

Results

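Pregnenolone 16α-carbonitrile (PCN) changed one set of genes in the ileum of wild-type (WT) mice and of mice without the pregnane X receptor (Pxr-/-) in the same direction and by a similar amount, and that common response is described here. The data were 23 one-colour Agilent arrays of ileum, each from 1 male mouse. They fell into 6 WT CONT, 5 WT PCN, 6 Pxr-/- CONT and 6 Pxr-/- PCN arrays. Dosing was intraperitoneal, 1 injection a day on 4 days, at 100 mg/kg for PCN. Corn oil was the vehicle, and its injection without PCN made up the CONT arm, so that the contrast measured PCN added to oil and not the oil or the needle. All mice were killed at ZT6 (ZT0 is lights on), 6 h after the final dose. WT mice were C57BL/6J bought at 6 weeks of age, and Pxr-/- mice were backcrossed to that strain and bred in house over 10 years, so that genotype and breeding origin cannot be told apart. The averaged PCN effect was the mean of 2 differences on the log2 scale, WT PCN minus WT CONT and Pxr-/- PCN minus Pxr-/- CONT, with wash batch as a term. It set 11 PCN arrays against 12 CONT arrays. A gene was called at a Benjamini-Hochberg adjusted p of at most 0.05 over all tested probes (limma) and a fold-change above 1.5. A called gene was counted as shared when both genotypes moved the same way and the smaller effect was at least 0.5 of the larger. Of 17727 genes tested, 264 were called (1.49%), and 207 of these were shared, 170 up-regulated (0.959% of all genes) and 37 down-regulated (0.209%).

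PXR is a nuclear receptor that, when bound by a foreign compound, switches on genes of drug oxidation, conjugation and export in liver and gut. PCN is a synthetic steroid used as the standard ligand of the rodent receptor. The ileum is a wall of several layers, with an absorptive epithelium inside, a mucosa rich in immune cells, smooth muscle, and an outer mesothelium that faces the peritoneal cavity. Cytokines such as interleukin 6, chemokines that attract neutrophils and monocytes, and acute phase proteins are known products of inflamed tissue.

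The arrays were alike in quality, with 60.9% to 67.3% of probes well above background on each. The targeted gene was examined first. Nr1i2, which encodes PXR, has 1 probe on the array (chromosome 16, 38248745 to 38248804, mm9), whose log2 signal was 11.82 to 12.36 (median 12.20) in WT CONT against 12.53, 12.32, 11.57, 12.10 and 12.41 in WT PCN, and 11.42 to 12.27 (median 11.66) in Pxr-/- CONT against 11.38 to 11.90 (median 11.74) in Pxr-/- PCN. The ranges of the genotypes overlapped, so this probe did not check the genotype labels, and its averaged PCN effect was 0.01 (SE 0.11, adjusted p 0.965). The 5 markers of ileal epithelium (Vil1, Slc10a2, Fabp6, Alpi and Cdx2) were above background on all arrays. Car1, a marker of colon, stood at 11.38 in Pxr-/- CONT replicate 3 and at 13.84 in Pxr-/- PCN replicate 3, against 6.04 to 7.03 on the other 21 arrays. Without these 2 arrays, a check chosen after the data were seen, 167 up-regulated and 39 down-regulated genes were shared, 158 and 33 of them also shared with all arrays. In whole tissue, fewer cells of a type and less RNA per cell cannot be told apart.

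The averaged contrast called 216 genes up (1.22%) and 48 down (0.271%). Leaving out WT PCN replicate 2 lowered the down-regulated genes from 48 to 31, and over all 23 single omissions the up-regulated genes ranged from 198 to 238. On their own, WT mice had 186 genes called (1.05%) and Pxr-/- mice 261 (1.47%), with 88 in common, 47.3% of the WT calls and 33.7% of the Pxr-/- calls. Of the 207 shared genes, 87 were called in each genotype alone, 18 in WT alone, 55 in Pxr-/- alone and 47 in neither. The median SE was 0.0697 for the averaged effect, 0.101 in WT and 0.0961 in Pxr-/- on the log2 scale.

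Similar size was a matter of estimates and their intervals, since the rule for shared genes is no test. The difference between the genotypes had an adjusted p of at most 0.05 in 22 genes (0.124%), 12 of them among the 264 called. Among the 207 shared genes, which the rule chose for like effects, its 95% interval stayed within plus or minus the averaged effect in 130. A moderate difference between the genotypes was therefore not detectable in many. The effect was larger in WT for 97 of the 207. The rule's edge lay between Abcc2 (ratio 0.511), Retnlg (0.514) and Cyp2c65 (0.522) just inside and Grasp (0.483), Col1a1 (0.481) and Ctsk (0.481) just outside. Over all 17727 genes the effects in the 2 genotypes, which share no arrays, had a Pearson r of 0.571 and a Spearman rho of 0.538, across genes, which are not independent.

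**Figure D1:**
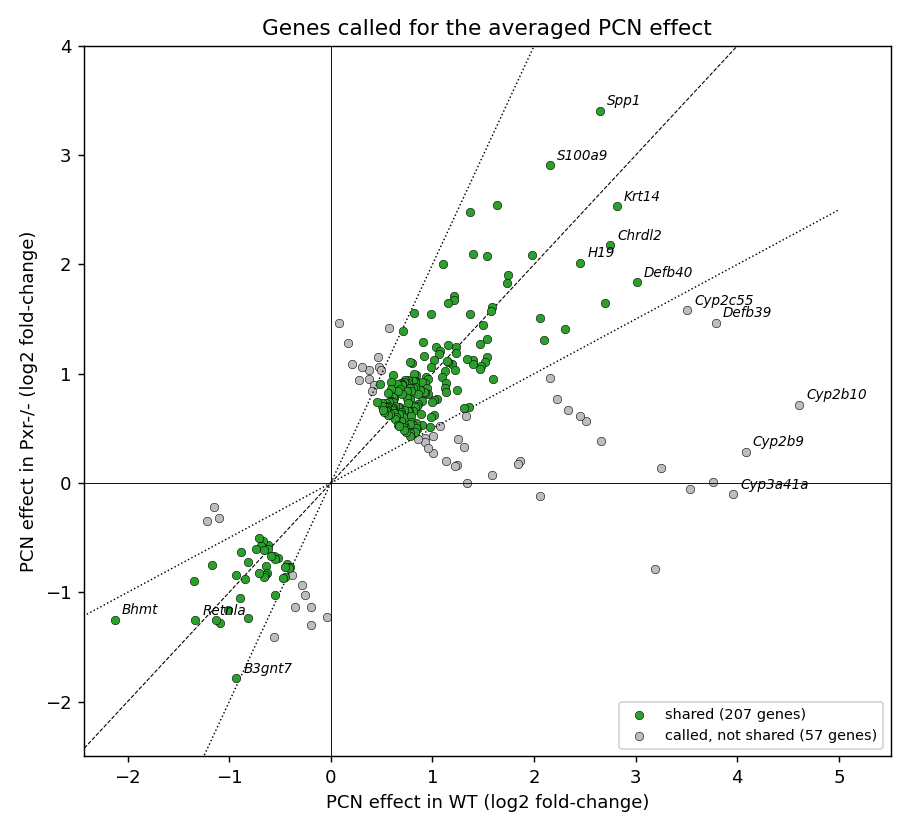
PCN effect in WT (horizontal) against PCN effect in Pxr-/- (vertical), both as log2 fold-change, for the 264 called genes. The 207 shared genes (green) lie between the dotted lines, which mark a ratio of 0.5, around the dashed line of equal effects, and the 57 others (grey) include Cyp2b10, Cyp2b9 and Cyp3a41a, which lie far to the right of the lower dotted line.

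The arrays separated without any model for part of these genes. Within each genotype, every PCN array lay above every CONT array for 87 of all genes (0.491%) and below for 19 (0.107%). Among the shared genes this held for 56 of the 170 up-regulated and for 2 of the 37 down-regulated, Ext1 and 2010003K11Rik. In 34 shared genes all 11 PCN arrays lay on one side of all 12 CONT arrays across the genotypes.

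The largest shared rise was in Spp1, which encodes osteopontin, a secreted phosphoprotein of macrophages and injured tissue. Its log2 signal was 5.37 to 8.06 (median 5.68) in WT CONT against 9.65, 11.83, 7.47, 7.31 and 7.74 in WT PCN, and 5.27 to 6.04 (median 5.68) in Pxr-/- CONT against 7.46 to 12.31 (median 8.04) in Pxr-/- PCN. WT CONT replicate 5 at 8.06 lay above 3 of the 5 WT PCN arrays, and the PCN arrays themselves spread widely. The averaged effect was 3.03 (SE 0.51, adjusted p 0.000766), with 2.65 in WT and 3.41 in Pxr-/-, and it was 1.89 in wash batch 1 alone. S100a9 and S100a8, the subunits of calprotectin, a protein abundant in neutrophils and also made by irritated epithelium, rose by 2.53 (SE 0.32, adjusted p 3.23e-05) and 2.09 (SE 0.27, adjusted p 5.65e-05). S100a9 signal was 6.24 to 8.1 (median 7.49) in WT CONT against 9.99, 10.73, 8.37, 9.36 and 9.6 in WT PCN, and 6.88 to 8.47 (median 7.59) in Pxr-/- CONT against 9.12 to 12.46 (median 10.48) in Pxr-/- PCN, with no overlap within either genotype. S100a8 separated all 11 PCN from all 12 CONT arrays. Their neighbour S100a4, a calcium-binding protein of fibroblasts and leukocytes that was picked out after its value was seen, had the smallest adjusted p, with a rise of 1.82 (SE 0.09, adjusted p 1.05e-11). Its signal was 11 to 11.27 (median 11.09) in WT CONT against 12.61, 13.19, 12.71, 12.90 and 12.95 in WT PCN, and 10.75 to 11.09 (median 10.92) in Pxr-/- CONT against 12.54 to 13.28 (median 12.65) in Pxr-/- PCN, and the groups stood clearly apart. The genotypes gave nearly the same value for S100a4, 1.74 in WT and 1.91 in Pxr-/-, with a 95% interval of the difference of -0.19 to 0.51.

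Several leading genes are best known from surface-lining or squamous epithelia. Krt14, a keratin of basal squamous cells, rose by 2.67 (SE 0.21, adjusted p 1.13e-07), or 6.37-fold. Its signal was 7.21 to 8.07 (median 7.79) in WT CONT against 10.33, 10.46, 10.37, 10.53 and 10.91 in WT PCN, and 6.56 to 8.74 (median 7.44) in Pxr-/- CONT against 9.22 to 10.97 (median 9.96) in Pxr-/- PCN, with all 11 PCN arrays above all 12 CONT arrays. Chosen after their values were seen, Slurp1, Dmkn, Sbsn and Lgals7, which encode proteins of stratified epithelium, rose by 1.86, 1.34, 0.84 and 1.26. Their effects in Pxr-/- mice were 1.41, 1.16, 0.92 and 1.12. Serpinb2, plasminogen activator inhibitor 2, was not above background on any CONT array and was above it on all 11 PCN arrays, a rise of at least 3.29-fold in WT and at least 3.42-fold in Pxr-/- (fitted averaged effect 2.03 (SE 0.18, adjusted p 4.82e-07)). No list of squamous genes was examined.

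Chrdl2, a secreted antagonist of bone morphogenetic proteins, had an adjusted p next to that of S100a4. Its signal was 6.6 to 7.38 (median 6.82) in WT CONT against 9.52, 10.18, 8.98, 9.62 and 10.24 in WT PCN, and 6.9 to 8.13 (median 7.4) in Pxr-/- CONT against 8.81 to 10.16 (median 9.68) in Pxr-/- PCN, and the 11 PCN arrays did not overlap the 12 CONT arrays. The averaged effect was 2.46 (SE 0.16, adjusted p 4.75e-09), or 5.51-fold. H19, an imprinted noncoding RNA that is otherwise high in the embryo, rose by 2.23 (SE 0.20, adjusted p 6.57e-07), with 2.45 in WT and 2.02 in Pxr-/-. The beta-defensins Defb40 and Defb37, antimicrobial peptides encoded side by side, rose by 2.42 (SE 0.29, adjusted p 2.16e-05) and 2.17 (SE 0.26, adjusted p 1.85e-05). Their effects were larger in WT (3.01 and 2.7) than in Pxr-/- (1.84 and 1.65), and the 95% intervals of the difference, -2.39 to 0.05 and -2.11 to 0.01, reached 0. Their relative Defb39 rose by 2.63 on average, with 3.79 in WT and 1.47 in Pxr-/-, and was not shared. Probes of such related genes may bind each other's transcripts, which was not separated. Arg1, arginase 1, an enzyme of alternatively activated macrophages, rose by 1.92 (SE 0.38, adjusted p 0.00304), with WT CONT replicate 5 again high at 7.75.

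**Figure D2:**
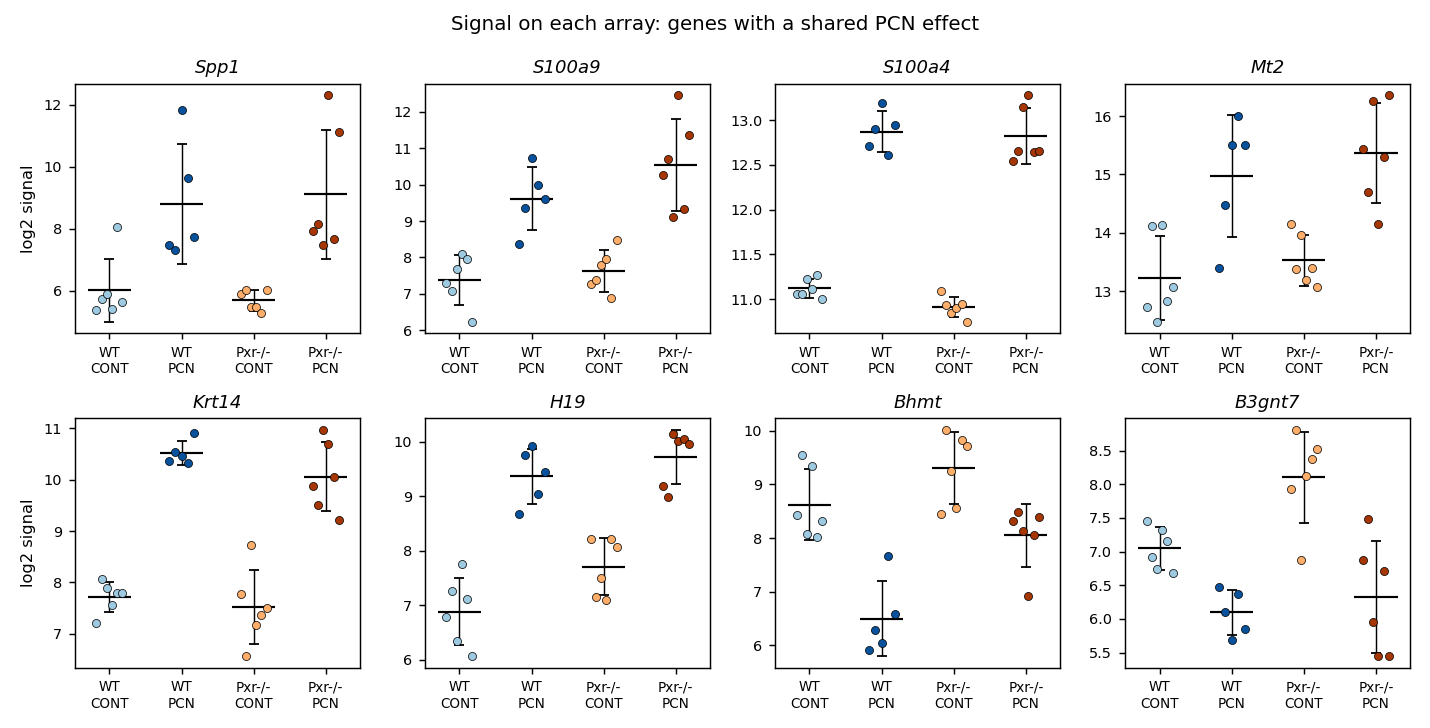
Log2 signal on each of the 23 arrays for 8 shared genes, by group, with the group mean (line) and SD (bar). In S100a4 the CONT arrays lie between 10.75 and 11.27 and the PCN arrays between 12.54 and 13.28, and in Bhmt the PCN arrays lie lower, with an overlap in Pxr-/- mice.

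Chemokines that attract myeloid cells formed a list of shared rises. Of 11 tested genes 6 were called, all up and all shared, with a list median of 0.61 against -0.00863 over all genes. Over all genes, 1.22% were called up and 0.959% were shared and up. Cxcl5, a neutrophil attractant, rose by 1.57 (SE 0.23, adjusted p 0.00019), with 1.57 in WT and 1.57 in Pxr-/-. Ccl2, the main monocyte attractant, rose by 1.47 (SE 0.18, adjusted p 2.16e-05). Its signal was 7.22 to 8.68 (median 8.04) in WT CONT against 9.29, 10.18, 9.92, 8.8 and 9.43 in WT PCN, and 7.7 to 8.72 (median 8.25) in Pxr-/- CONT against 9.38 to 10.13 (median 9.67) in Pxr-/- PCN, with no overlap between PCN and CONT. Ccl7, encoded beside Ccl2, rose by 1.13, Cxcl1 by 0.87, Ccl9 by 0.61 and the eosinophil attractant Ccl24 by 1.43.

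Markers of the cells these chemokines attract were examined next, beside 1.22% called up and 0.959% shared and up over all genes. Of 14 tested neutrophil genes 4 were called, all up and shared: S100a9, S100a8, Retnlg (1.05) and the chemokine receptor Cxcr2 (0.61), and the list median was 0.11. The granule protein genes set beforehand as neutrophil markers did not pass the test, with averaged effects of 0.07 for Camp, 0.09 for Mpo, -0.05 for Elane and -0.06 for Ltf. They were dim, with only 3 of the 4, or 2 in Pxr-/- PCN, above background on all arrays of a group. Whether their RNA follows neutrophil number in ileum was not tested. The summed linear signal of these 4 tested markers of 5 spanned 386 to 432 (WT CONT), 411 to 504 (WT PCN), 446 to 520 (Pxr-/- CONT) and 368 to 515 (Pxr-/- PCN), so that PCN and CONT overlapped. The part of neutrophil number in the calls was not tested. Of 15 macrophage genes 0 were called, by limma, with a median of 0.24 and 13 of 15 above 0 (8392 of 17727 over all genes). The summed signal of Cd68, Adgre1 and Csf1r was 7800 to 9610, 8530 to 10500, 7110 to 9930 and 9210 to 11700 in the same order of groups. Of 12 tested genes of lipid-laden macrophages 4 rose, among them Spp1, the lipid receptor Trem2 (1.44) and the glycoprotein Gpnmb (0.75), 3 of them shared. Clec4d and Clec4e, adjacent C-type lectin receptors of myeloid cells outside the lists, rose by 1.75 and 1.56. In wash batch 1 alone their rises were 1.00 and 0.90, against 2.44 and 2.19 in wash batch 2 alone. Clec4e was above background on no Pxr-/- CONT array, and its rise there was at least 3.51-fold. Cxcr2 was above background on no WT CONT array and on 3 of 5 WT PCN arrays, so that its rise in WT has no exact size. The call of Cxcr2 was lost without WT CONT replicate 2, WT PCN replicate 2, Pxr-/- PCN replicate 5 or Pxr-/- PCN replicate 6, and with array weights. Of 10 tested genes of mast cells and eosinophils 2 were called, the mucosal mast cell proteases Mcpt1 (1.79 (SE 0.26, adjusted p 0.000167)) and Mcpt2 (0.90). Outside that list, Mcpt4 rose by 1.7 and Hdc, the histamine-forming enzyme, by 0.88. Mcpt1, Mcpt2 and Mcpt4 are close relatives whose probes were not shown to be specific.

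Alternatively activated macrophage genes moved in opposite directions. Of 9 tested, Arg1, Chil3 (1.81) and Clec10a (0.87) rose and Retnla (-1.3) fell, all 4 shared, and the list median was 0.04. Among all genes, 0.959% were shared and up and 0.209% shared and down. Chil3 encodes a chitinase-like lectin of macrophages, and its relative Chil1 fell by 1.02. Retnla encodes the resistin-like protein FIZZ1. Its signal was 8.39 to 9.5 (median 9.19) in WT CONT against 8.06, 6.88, 7.06, 8.53 and 8.04 in WT PCN, and 8.35 to 9.77 (median 8.99) in Pxr-/- CONT against 7.02 to 8.54 (median 7.79) in Pxr-/- PCN, with the highest PCN array of each genotype inside the CONT range. The adjacent Retnlg rose by 1.05, and its probe was above background on 2 of 6 CONT arrays of each genotype.

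Acute phase genes split in the same way. Of 18 genes of acute phase and interleukin 6 signalling, 5 were called up and 2 down, all 7 shared, with a list median of 0.42. Among all genes, 1.22% were called up and 0.271% down. Il6 rose by 0.95 (SE 0.08, adjusted p 2.28e-07). Its signal was 5.05 to 5.73 (median 5.37) in WT CONT against 6.29, 6.38, 5.93, 6.04 and 6.2 in WT PCN, and 5.02 to 5.45 (median 5.12) in Pxr-/- CONT against 6.06 to 6.49 (median 6.31) in Pxr-/- PCN, without overlap, and the probe was above background on 1 of 6 CONT arrays of each genotype and on all 11 PCN arrays. Osm, a cytokine of the same family, rose by 0.73, its receptor Osmr by 0.92, and Lcn2, the iron-binding lipocalin, by 0.77. Saa3, the serum amyloid A of macrophages and fat, rose by 1.25 (SE 0.21, adjusted p 0.000958), while Saa1 and Saa2, made by liver and gut epithelium, changed by -1.19 (SE 0.32, adjusted p 0.025) and -1.19 (SE 0.32, adjusted p 0.0247). Saa1 and Saa2 were called in neither genotype alone. Saa1 signal was 13.68 to 16.31 (median 15.42) in WT CONT against 15.86, 12.96, 14.46, 14.61 and 13.22 in WT PCN, and 15.64 to 17.02 (median 16.37) in Pxr-/- CONT against 14.61 to 16.38 (median 14.83) in Pxr-/- PCN, and the groups overlapped in both genotypes. The call of Saa1 was lost without WT PCN replicate 2 or replicate 5 (adjusted p up to 0.0515 with limma), and that of Saa2 without replicate 5 (0.0507). In wash batch 1 alone Saa1 changed by -0.67 and Saa2 by -0.64.

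The upstream sequences of these 3 Saa genes are shown because neighbours on chromosome 7 moved in opposite directions. Each run is the 250 bases before the RefSeq start (GRCm38.p6), 5′ to 3′ in the gene's direction, and capitals mark matches on either strand to TTNNGNAA, a C/EBP motif, of which Saa1 held 2, Saa2 held 1 and Saa3 held 4.
Saa1 (chr7:46742981-46743230, minus strand): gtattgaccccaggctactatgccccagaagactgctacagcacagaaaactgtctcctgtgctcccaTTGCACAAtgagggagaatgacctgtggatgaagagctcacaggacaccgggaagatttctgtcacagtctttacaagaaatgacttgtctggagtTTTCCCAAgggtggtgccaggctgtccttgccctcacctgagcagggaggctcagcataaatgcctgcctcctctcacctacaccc
Saa2 (chr7:46751583-46751832, plus strand): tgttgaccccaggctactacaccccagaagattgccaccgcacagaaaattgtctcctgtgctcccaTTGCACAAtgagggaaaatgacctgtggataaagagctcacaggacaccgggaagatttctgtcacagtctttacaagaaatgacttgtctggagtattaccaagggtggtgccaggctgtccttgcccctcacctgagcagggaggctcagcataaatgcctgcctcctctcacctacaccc
Saa3 (chr7:46715677-46715926, minus strand): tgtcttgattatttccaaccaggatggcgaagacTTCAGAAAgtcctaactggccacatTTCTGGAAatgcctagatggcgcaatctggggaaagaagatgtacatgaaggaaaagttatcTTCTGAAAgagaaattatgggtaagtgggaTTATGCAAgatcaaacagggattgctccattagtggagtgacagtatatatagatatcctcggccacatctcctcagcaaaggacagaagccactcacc
Saa1 and Saa2 had 94.8% identical bases in a global alignment, and Saa3 had 50.2% and 50.6% with them. The motif was found in 36.8% of all 32851 RefSeq promoters, so its presence alone is common. Probes of Saa1 and Saa2 may bind both transcripts, which was not separated.

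**Figure D3:**
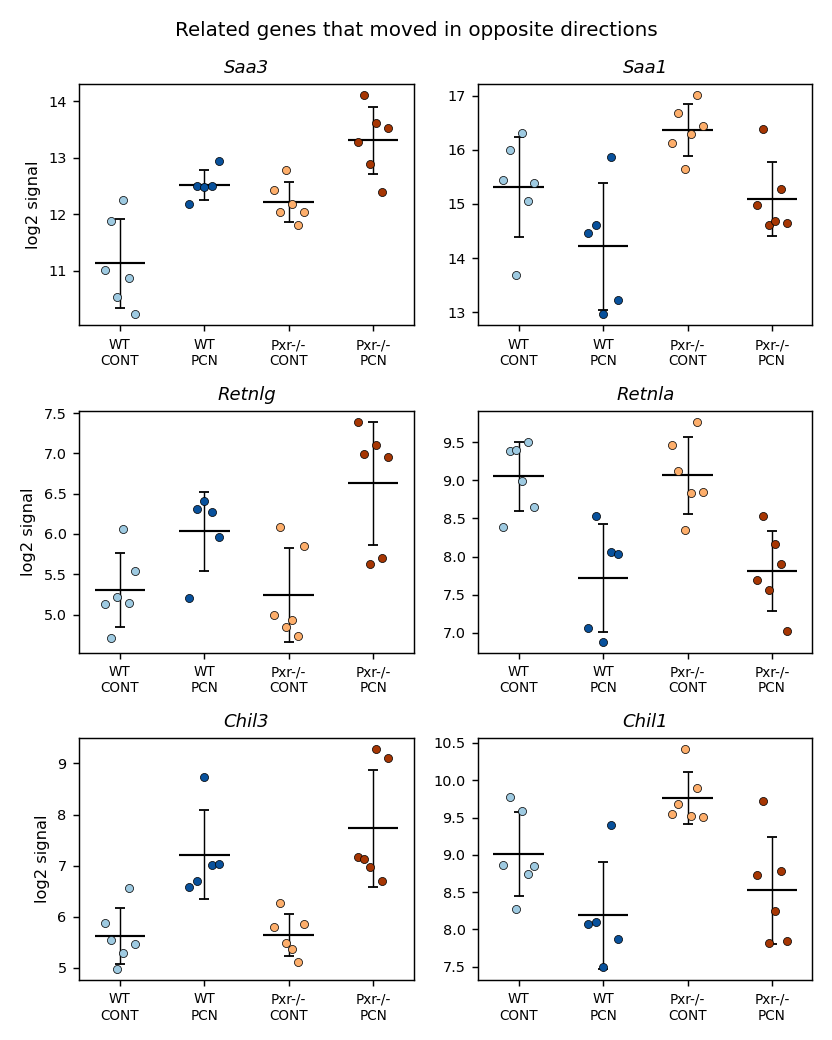
Log2 signal on each array for 3 pairs of related genes, with group mean (line) and SD (bar). In each row the left gene (Saa3, Retnlg, Chil3) has higher PCN means and the right gene (Saa1, Retnla, Chil1) lower PCN means than CONT in both genotypes, with overlap between single arrays in most panels.

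Some genes of matrix and its remodelling rose. Of 16 matrix remodelling genes 5 were called, all up and shared, with a median of 0.38. Over all genes, 1.22% were called up and 0.959% were shared and up. Timp1, an inhibitor of matrix metalloproteinases, rose by 1.24 (SE 0.22, adjusted p 0.00151), and the metalloproteinase Mmp19 by 0.84. The effect of Timp1 was 0.68 in wash batch 1 alone. Of 18 collagens and other matrix genes 3 were called up, and 17 of 18 lay above 0 (8392 of 17727 over all genes), with a median of 0.34. Fbln2 (fibulin 2) and Lum (lumican) rose by 0.88 and 0.76 and were shared, whereas Col1a1 rose by 0.77 on average, with 0.50 in WT and 1.04 in Pxr-/-. Actg2, the actin of visceral smooth muscle, was the single call among 12 smooth muscle genes (0.61 (SE 0.12, adjusted p 0.00227)), and it did not pass the fold threshold without WT PCN replicate 2 (0.54), Pxr-/- CONT replicate 6 (0.58) or Pxr-/- PCN replicate 5 (0.57). Has1, a hyaluronan synthase, and Vim, vimentin of mesenchymal cells, rose by 1.07 and 0.80 with all 11 PCN arrays above all 12 CONT arrays.

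The outer lining of the gut was examined through 2 defining markers. Msln, mesothelin, rose by 0.86 (SE 0.14, adjusted p 0.000642). Its signal was 10.03 to 10.94 (median 10.72) in WT CONT against 11.71, 11.52, 11.24, 11.83 and 11.65 in WT PCN, and 10.26 to 10.96 (median 10.72) in Pxr-/- CONT against 10.59 to 11.87 (median 11.44) in Pxr-/- PCN, and the groups separated in WT and overlapped in Pxr-/-. Upk3b, the other defining marker, had an averaged effect of 0.13 (SE 0.13, adjusted p 0.615). The summed signal of both was 1170 to 2240 in WT CONT, 2560 to 3880 in WT PCN, 1340 to 2180 in Pxr-/- CONT and 1680 to 3960 in Pxr-/- PCN. Of 7 tested mesothelial genes Msln alone was called, and the list median was 0.13. The part of mesothelial cells in the other rises was not tested.

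The metallothioneins Mt2 and Mt1, small proteins that bind zinc and copper, rose by 1.78 (SE 0.30, adjusted p 0.000777) and 1.14 (SE 0.20, adjusted p 0.00115). A second, dimmer probe of Mt1 was not called, with 0.28 (adjusted p 0.376 by limma). Mt2 signal was 12.48 to 14.13 (median 12.95) in WT CONT against 16, 15.51, 13.40, 14.47 and 15.51 in WT PCN, and 13.07 to 14.16 (median 13.39) in Pxr-/- CONT against 14.16 to 16.36 (median 15.37) in Pxr-/- PCN, and the lowest PCN array of each genotype reached into the CONT range. In wash batch 1 alone their effects were 1.23 and 0.72 and did not pass the test. They belong to a list of 17 glucocorticoid targets, in which Fkbp5, a chaperone of steroid receptors, was the other call (1.04 (SE 0.15, adjusted p 0.00015)), the list median being 0.22. That median was 0.435 in WT and 0.0979 in Pxr-/-. Hmox1, heme oxygenase 1, rose by 1.21 (SE 0.20, adjusted p 0.000742), the single call among 16 NRF2 targets, whose median was 0.00252, or -0.05 with arrays centred on their median. Il33, an alarm cytokine of lining and stromal cells outside the lists, rose by 1.21 (SE 0.10, adjusted p 4.34e-07) with all PCN arrays above all CONT arrays.

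Drug metabolism genes, many of them known PXR targets, were examined in the same way. Of 43 tested genes 19 were called for the averaged effect, all up (1.22% of all genes), and 4 of the 19 were shared (0.959% of all genes were shared and up), Abcb1a, Abcb1b, Abcc2 and Cyp2c65. Abcb1a and Abcb1b encode the drug export pump P-glycoprotein, and Abcb4, next to them on chromosome 5, a phospholipid exporter. The averaged effects were 1.27 (SE 0.12, adjusted p 8.36e-07), 1.27 and 1.31. Abcb1a signal was 14.12 to 15.03 (median 14.17) in WT CONT against 15.48, 16.15, 16.03, 15.79 and 15.54 in WT PCN, and 12.67 to 13.41 (median 12.81) in Pxr-/- CONT against 13.54 to 14.34 (median 14.06) in Pxr-/- PCN, with no overlap within a genotype and a lower level in Pxr-/- mice. The rises were 1.48, 1.59 and 1.51 in WT and 1.07, 0.95 and 1.1 in Pxr-/-, in the same order. The 95% interval of the difference for Abcb1b, -1.14 to -0.15, lay below 0, without a call after adjustment (adjusted p 0.989). Abcc2, an exporter of conjugates, and Cyp2c65, a cytochrome P450, were near the edge of the rule, with 1.36 in WT and 0.70 in Pxr-/- and 1.31 in WT and 0.68 in Pxr-/-.

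**Figure D4:**
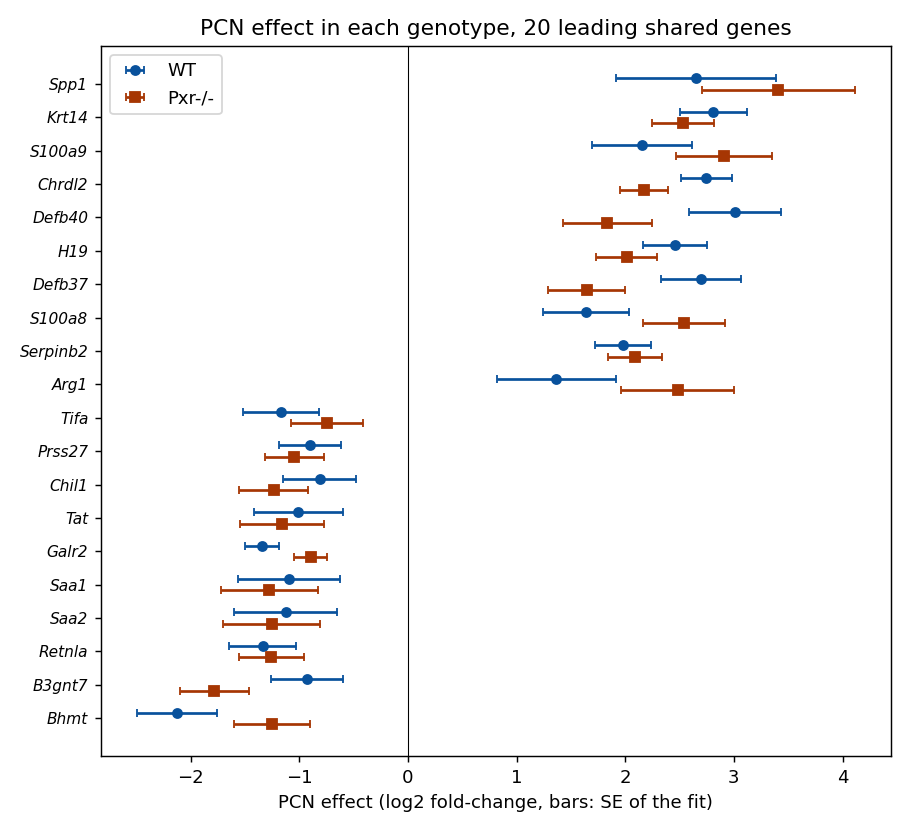
PCN effect in WT (circles) and Pxr-/- (squares) with the SE of the fit, log2 fold-change, for the 10 shared genes with the largest rise and the 10 with the largest fall. Every pair lies on one side of 0, and the SE bars of the pair overlap in genes such as Krt14, Serpinb2, Saa1 and Retnla but not in Defb40, Galr2 or Bhmt.

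The falls were fewer and smaller. Bhmt, betaine-homocysteine methyltransferase, which remakes methionine from homocysteine, fell most. Its signal was 8.03 to 9.55 (median 8.38) in WT CONT against 7.67, 6.04, 5.91, 6.29 and 6.59 in WT PCN, and 8.44 to 10.02 (median 9.48) in Pxr-/- CONT against 6.91 to 8.48 (median 8.22) in Pxr-/- PCN, and the groups separated in WT and overlapped slightly in Pxr-/-. The averaged effect was -1.69 (SE 0.26, adjusted p 0.000263), with -2.13 in WT and -1.25 in Pxr-/-, and it was the single call among 12 tested genes of the methionine cycle. B3gnt7, a glycosyltransferase of keratan sulfate, changed by -1.36 (SE 0.23, adjusted p 0.000784), with -0.93 in WT and -1.78 in Pxr-/-. Galr2, a receptor of the neuropeptide galanin, changed by -1.12 (SE 0.11, adjusted p 1.34e-06), the smallest adjusted p among the falls. Its signal was 8.3 to 8.58 (median 8.34) in WT CONT against 7.3, 7.02, 7.06, 7.36 and 6.59 in WT PCN, and 7.88 to 8.55 (median 8.29) in Pxr-/- CONT against 7.0 to 8.04 (median 7.26) in Pxr-/- PCN, separate in WT and overlapping in Pxr-/-. Tat, the glucocorticoid-inducible tyrosine aminotransferase of liver, changed by -1.08 (SE 0.28, adjusted p 0.0191), but by -0.57 in wash batch 1 alone. The chitinase-like Chil1, the serine protease Prss27 and Tifa, an adaptor of NF-kappaB signalling, changed by -1.02, -0.97 and -0.96. Agr2, a disulfide isomerase needed for mucin, changed by -0.76 (SE 0.16, adjusted p 0.00448) and was the single call among 10 goblet cell genes, whose median was -0.36. Among genes named after their values were seen, Stom (stomatin) changed by -0.86, Kng1 (kininogen) by -0.89, and the tight junction claudins Cldn4 and Cldn8 by -0.79 and -0.77. The call of Cldn4 was lost under 7 single omissions (WT CONT replicates 5 and 6, WT PCN replicates 2, 3 and 4, Pxr-/- CONT replicate 5 and Pxr-/- PCN replicate 5), that of Cldn8 under 3 (WT PCN replicates 2 and 3 and Pxr-/- PCN replicate 5), and both with the replicate block.

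Of the 37 shared down-regulated genes 16 were called in neither genotype alone, and of the 170 up-regulated 31. The largest of these were Acod1, the itaconate-forming enzyme of activated macrophages (averaged effect 1.46, adjusted p 0.0205), Saa2, Saa1, Pck1, the gluconeogenic enzyme (1.14, adjusted p 0.0286) and Tat. Acod1 changed by 1.21 in WT (adjusted p 0.392) and by 1.71 in Pxr-/- (adjusted p 0.0723). They rest on the pooled contrast and had wide errors, with an SE of 0.38 for Acod1 and 0.32 for Saa1.

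The remaining lists had few calls or none. Over all 17727 genes tested, 8392 had an averaged effect above 0. All 20 DNA replication genes and all 20 mitosis genes lay below 0, with medians of -0.25 and -0.23, and 0 were called by limma with the fold threshold. Genes of a list are not independent. The mitosis median was -0.12 in WT and -0.35 in Pxr-/-. All 12 genes of cytotoxic lymphocytes lay below 0 (median -0.21), and all 9 tested B cell genes lay above 0 (median 0.72, 1.1 in WT and 0.44 in Pxr-/-), again with 0 calls. The mean deviation of the B cell genes ran from -0.16 to 2.16 over the WT PCN arrays, where WT CONT had -0.47 to -0.26. Only WT PCN replicates 2 and 3 were high (2.15 and 2.16), and the other WT PCN arrays lay between -0.16 and -0.07. The Pxr-/- PCN arrays spanned -0.40 to 0.89, of which replicate 1 alone was above 0, and the Pxr-/- CONT arrays -0.56 to -0.22. Cholesterol synthesis had 0 calls among 22 genes and medians of opposite sign, 0.17 in WT and -0.34 in Pxr-/-. Single calls were the fructose transporter Slc2a5 (0.67) among 16 brush border genes, the clock gene Arntl (-0.66) among 17, the ligand Hbegf (-0.98) among 11 of the EGF receptor pathway and the transcription factor Egr2 (0.67) among 16 immediate early genes, of which Egr2 was shared. The call of Slc2a5 was lost without WT PCN replicate 2 and that of Arntl without WT CONT replicate 4. Rdh16, a retinoid dehydrogenase, fell (-0.68, not shared), and of 15 mucosal glycosyltransferases B3gnt6 (0.64, not shared) and B3galt5 rose beside the fall of B3gnt7. By limma 0 genes were called in the lists of vascular endothelium, peritoneal macrophages, Paneth cells, enteroendocrine cells, adipocytes, pancreatic acinar cells, plasma cells, stem cells, interferon response, endoplasmic reticulum stress, hypoxia, fatty acid synthesis, fatty acid oxidation and aryl hydrocarbon receptor targets, with medians from -0.11 to 0.22.

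**Figure D5:**
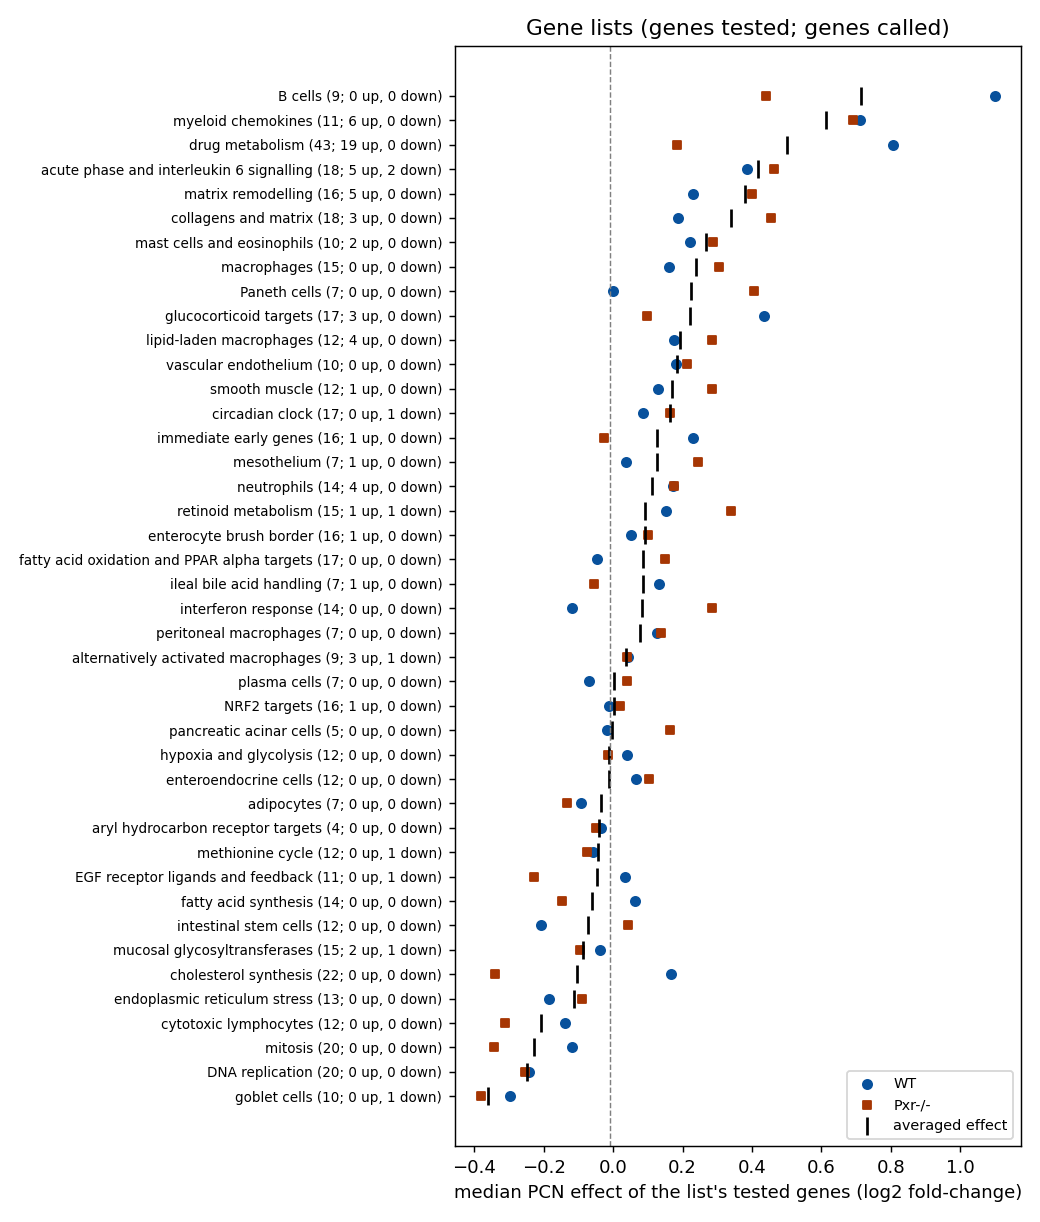
Median PCN effect of each gene list (log2 fold-change) in WT (circles), in Pxr-/- (squares) and averaged (bars), with the number of genes tested and called in each direction beside its name, and the median of all genes as a dashed line. Myeloid chemokines have medians of 0.71 in WT and 0.69 in Pxr-/-, whereas drug metabolism and cholesterol synthesis differ between them.

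Position was examined as a feature the rule did not use. Probe positions of shared genes (mm9) placed 49 of the 207 within 200000 bases of another, in 21 groups, and in 19 groups all members moved the same way. With 170 of the 207 genes up, small groups of one direction are common, and no such counts were made for other genes, so these are a description. The groups of one direction included S100a3, S100a4, S100a8 and S100a9 on chromosome 3, Abcb1a, Abcb1b and Abcb4 on chromosome 5, Serpina3i, Serpina3m and Serpina3n on chromosome 12, Mcpt1, Mcpt2 and Mcpt4 on chromosome 14, and Mt1 and Mt2 on chromosome 8. The exceptions were Saa3 against Saa1 and Saa2 on chromosome 7, and Retnlg against Retnla on chromosome 16. Many of these groups are gene families, in which probes may bind related transcripts.

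Upstream sequence gave 1 further description. RefSeq promoters (GRCm38.p6, 250 bases before the start, both strands) were found for 123 of the 170 up-regulated and 30 of the 37 down-regulated shared genes. The NF-kappaB motif GGGNNTTTCC was present in 10 of 147 promoters of up-regulated genes (6.8%), in 0 of 34 of down-regulated genes and in 1.41% of all 32851 promoters. The AP-1 motif TGANTCA was present in 15%, 11.8% and 6.75%, the C/EBP motif TTNNGNAA in 48.3%, 26.5% and 36.8%, the metal response element core TGCNCNC in 44.2%, 50% and 44.4%, the TATA box TATAAA in 20.4%, 8.82% and 12.4%, and the glucocorticoid response element, searched in one spelling, in 2.04%, 0% and 0.387%. These shares were not tested, and a match is not a site. Of the 10 up-regulated genes with a match to GGGNNTTTCC, only the cytokine, chemokine, acute phase and keratinocyte genes were picked for print. The pick is not a sample of the 10, and a part of the motif in any rise was not tested. Capitals mark the match for which each window was cut, with up to 20 bases on each side.
Krt14 (chr11:100206108-100206157, minus strand): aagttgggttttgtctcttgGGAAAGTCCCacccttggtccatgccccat
Serpina3n (chr12:104406517-104406566, plus strand): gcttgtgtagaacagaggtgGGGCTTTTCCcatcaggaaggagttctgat
Serpina3i (chr12:104262948-104262997, plus strand): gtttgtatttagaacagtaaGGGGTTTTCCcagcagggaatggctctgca
Il6 (chr5:30013050-30013099, plus strand): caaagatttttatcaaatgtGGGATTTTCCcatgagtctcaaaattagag
Cxcl1 (chr5:90891154-90891203, plus strand): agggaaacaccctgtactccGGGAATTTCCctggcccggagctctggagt
Sbsn (chr7:30751397-30751446, plus strand): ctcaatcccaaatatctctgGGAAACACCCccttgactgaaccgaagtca
Ccl9 (chr11:83578642-83578691, minus strand): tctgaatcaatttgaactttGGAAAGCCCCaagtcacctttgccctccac
The averaged effects of these genes were 2.67, 1.6, 1.37, 0.95, 0.87, 0.84 and 0.61 in the order printed. Cxcl1 held 2 matches, of which the one nearer the start is in capitals and the other lies in lower case in the flank before it. The other 3 genes with a match, Marco, Steap4 and Vim, are not of the kinds picked and are not printed.

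The 57 called genes that were not shared are not described by their average. Of these 36 had the larger effect in WT and 21 in Pxr-/-, and 4 had opposite signs. The 5 largest were Cyp2b10 (4.61 in WT and 0.72 in Pxr-/-), Defb39, Cyp2c55 (3.51 in WT and 1.58 in Pxr-/-), Cyp2b9 (4.08 in WT) and Cyp3a41a (3.96 in WT and -0.10 in Pxr-/-). The difference between the genotypes was called for Cyp2b10, Cyp2b9 and Cyp3a41a (adjusted p 0.000875, 0.000146 and 0.00182) and not for Cyp2c55 (adjusted p 0.787, 95% interval -3.27 to -0.59). In Pxr-/- mice Cyp2b9 was above background on 0 of 6 CONT arrays and 1 of 6 PCN arrays. Neither a change there nor the difference between the genotypes therefore has an exact size. Probes of related Cyp genes may bind each other's transcripts. B3galt5, a glycosyltransferase, was called for the average (1.2) with opposite effects, 3.19 in WT and -0.78 in Pxr-/-, and its call was lost under 17 of the 23 single omissions.

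Both wash batches gave the same directions, as subsets of the arrays on which the genes were chosen. All 207 shared genes kept the sign of the averaged effect in wash batch 1 and in wash batch 2, and 203 kept it in each genotype within each batch, with median sizes of 0.727 and 0.895. The call itself was often not kept with 11 or 12 arrays. Wash batch 1 alone called 58 genes up and 4 down, of which 55 and 2 were also called with all arrays. Wash batch 2 alone called 182 up and 45 down, of which 150 and 23 were. The full fit called 216 and 48. Of its 170 up-regulated and 37 down-regulated shared genes, 38 and 1 were again shared in batch 1, and 117 and 16 in batch 2. Of 63 shared genes with more than 1 tested probe, 18 had another probe called and 55 had every other probe in the same direction. Dimmer second probes that were not called included those of Mt1, Hdc (0.22), Kng1 (-0.35) and B3gnt7 (-0.31). In Mbd1, Xpo7, Pip5k1a, Calca, Gja5, Vwa1 and Mmp19 every other probe changed by less than 0.2. The other 144 shared genes had 1 tested probe each, so that their calls rest on 1 probe as well.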

How the data were processed

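Ileum RNA of 23 male mice was hybridised to one-colour Agilent arrays (150 ng, per the labels). The deposited scanner files hold intensity values per spot, made by the authors with Agilent Feature Extraction 10.10.1.1. The authors' own table holds log2 values, filtered, corrected for wash batch and normalized with CrossNorm. All its columns have a median of 8.02, and it served as an alternative.

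Median spot intensity was put on the log2 scale and quantile-normalized between arrays, and spots of a probe were averaged (the R package data.table, version 1.17.8, R 4.3.3, limma 3.58.1). A probe was tested when above background on at least 50% of the arrays of a group (37591 of 56605 probes). A gene was represented by its brightest tested probe. The limma model held 4 groups and wash batch, and was tested on simulated data. Where only the PCN or only the CONT arm of a genotype had arrays above background, a fold bound against the lowest detected signal was computed. The bound is printed only where all arrays of that arm were above background. The number of arrays limits the precision. Whether mice of a group shared a cage is not given in the sources used here.

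Named genes were the 10 largest shared rises and falls, the 5 largest called genes not shared, up to 3 called genes of each list, Nr1i2 and the defining markers. Further genes were named after their values were seen. Members and lists were chosen with earlier results of these data known. Replicate numbers did not pair the arrays: over 33 same-number pairs the correlation of deviations ran from -0.298 to 0.398, with 8 over 0.1. Alternatives covered signal, scaling, filters, blocks, weights, thresholds, wash batch and single arrays left out. Some list members are not reported here.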

Additional observations from a re-analysis of the deposited data

Results flagged for a closer look

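In 28 of 376 combinations of a named gene and a group, 1 array stood apart from the others of its group, over 13 arrays, and chance alone gives about 1 in 20. Each ratio below is the gap between that array and its nearest neighbour as a share of the group's range. Pxr-/- CONT replicate 3 stood apart for B3gnt6 (highest, ratio 0.769), Hdc (lowest, ratio 0.772) and Car1 (highest, ratio 0.847). Pxr-/- CONT replicate 4 stood apart for Tat (lowest, ratio 0.669) and Abcc2 (highest, ratio 0.666). Pxr-/- CONT replicate 6 stood apart for Upk3b (lowest, ratio 0.694). Pxr-/- PCN replicate 1 stood apart for Mcpt2 (highest, ratio 0.852), Lgals7 (lowest, ratio 0.632) and Upk3b (lowest, ratio 0.692). Pxr-/- PCN replicate 3 stood apart for Car1 (highest, ratio 0.918). Pxr-/- PCN replicate 5 stood apart for Bhmt (lowest, ratio 0.728) and Ltf (lowest, ratio 0.811). Pxr-/- PCN replicate 6 stood apart for Saa2 (highest, ratio 0.632) and Nr1i2 (lowest, ratio 0.675). WT CONT replicate 1 stood apart for Rdh16 (lowest, ratio 0.629). WT CONT replicate 2 stood apart for Cxcr2 (lowest, ratio 0.645), Abcb1a (highest, ratio 0.869), Abcb1b (highest, ratio 0.853) and Abcb4 (highest, ratio 0.773). WT CONT replicate 3 stood apart for Mmp19 (lowest, ratio 0.667) and Kng1 (highest, ratio 0.666). WT CONT replicate 4 stood apart for Prss27 (highest, ratio 0.702). WT CONT replicate 5 stood apart for Spp1 (highest, ratio 0.809), Arg1 (highest, ratio 0.807), Trem2 (highest, ratio 0.724) and Clec4d (highest, ratio 0.641). WT PCN replicate 2 stood apart for Ccl24 (highest, ratio 0.751) and Chil3 (highest, ratio 0.786). Car1 was also far from the other arrays on both Pxr-/- arrays named for it, and the main counts without them are in the report.

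The PCN effect differed between the genotypes, by the interaction term of limma, for Cyp2b10 (Pxr-/- minus WT -3.891), Cyp2b9 (-3.797), Cyp3a41a (-4.062) and B3galt5 (-3.971, adjusted p 0.0359). The value of Cyp2b9 rests on a probe above background on 1 of the 12 Pxr-/- arrays.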

How the results depend on the processing

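Genes called up, called down, shared up and shared down numbered 332, 81, 268 and 61 with the processed signal, 1110, 1023, 765 and 805 without the fold threshold, and 58, 4, 40 and 3 in wash batch 1 alone. With a stricter ratio of the smaller to the larger effect, 110 up and 23 down were shared. Over single arrays left out the counts ranged from 198 to 238, 31 to 65, 156 to 191 and 25 to 51, each lowest without WT PCN replicate 2. The replicate block gave 209 up, 39 down, 169 shared up and 32 shared down, and among called named genes it changed the calls of Cldn4 and Cldn8. The authors' table gave 216, 48, 169 and 37. The totals of the other settings stayed within 1.5 times of each count, and the additive model gives no shared count. The members changed more than the totals. Of the 37 down-regulated shared genes, 22 were again shared with array weights, 30 with slide as a fixed block and 16 in wash batch 2 alone. Of the 170 up-regulated, 144, 163 and 117 were, in the same order.

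Effects that changed sign were not called. Nr1i2 was -0.051 with arrays centred on their median, -0.041 with slide as a fixed block, -0.00338 with the replicate block, -0.010 with array weights, -0.15 in wash batch 1 and -0.024 without the 2 arrays high in Car1, and ran from -0.031 to 0.085 over single omissions, below 0 in 8. Car1 was -0.015 with slide as a fixed block, and ran from -0.37 without Pxr-/- PCN replicate 3 to 0.60 over single omissions. Ltf was 0.0088 with array weights, 0.14 in wash batch 1, and ran from -0.14 to 0.061 over single omissions, highest without Pxr-/- PCN replicate 5. The cause was not tested. Called named genes kept their call in 1302 combinations of gene and setting and lost it in 89, and with single arrays left out kept it in 1962 and lost it in 39. Normexp background correction lost Cxcr2, Egr2, Gpnmb, Osm and Rdh16. Dim probes such as Retnlg and Serpinb2 lie near background, which limits their fold.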
